A study of Mus musculus with 5 samples.

Results

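Monocyte-like nuclei were 154 of the 53198 liver nuclei kept from 57080 barcodes. They were selected on measured values, by the RNA each nucleus carried. A nucleus was kept with at least 300 genes and under 20% mitochondrial UMIs (unique molecular identifiers, each standing for 1 captured RNA molecule). It counted as monocyte-like when it held at least 1 UMI in 2 or more of Ccr2, F13a1, Emilin2 and Ly6c2. It also had to hold 0 UMIs of Hnf4a, Ptprb, Pkhd1, Col3a1, Clec4f, Siglech, Cd3e and Cd79a, which mark hepatocytes, endothelial cells, cholangiocytes, stellate cells, Kupffer cells, plasmacytoid dendritic cells, T cells and B cells. Levels of these 12 genes are therefore a description and were given no test.

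Monocytes are made in bone marrow from myeloid progenitors and reach the liver through the blood, drawn in part by chemokines that bind CCR2. Classical monocytes of the mouse carry Ly6C and CCR2, whereas non-classical monocytes carry CX3CR1 and patrol the vessel wall. In an injured liver, monocytes can become macrophages that sit beside or take the place of resident Kupffer cells.

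The libraries came from livers of wild-type male C57BL6/J mice given regular chow (3 libraries) or a diet used to model metabolic dysfunction-associated steatohepatitis (MASH, 2 libraries), in which fat gave 40% and fructose 20% of the energy and cholesterol made up 2%. Feeding began at 10 to 12 weeks of age and lasted 5 months. Nuclei were freed from frozen tissue, sorted and read with a droplet 3-prime method. Whether a library held 1 mouse or a pool is not given in the labels, so p-values measure only the spread between libraries, which may be technical.

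Total depth ran from 35612373 to 49137377 UMIs per library. The monocyte-like nuclei were shallow, with a median of 808 to 1463 UMIs per nucleus in the 5 libraries, against 2032 to 3816 for all nuclei kept. Between 1.04% and 1.31% of the barcodes of a library occurred in another library, among them 2 of the monocyte-like nuclei, both in chow 3. Their median mitochondrial share was highest in MASH 1, at 10.9%, and 3.56% to 7.86% elsewhere.

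The label held in part. Of the 4 markers, Ccr2, the receptor for monocyte chemokines, was found in 136 of the 154 nuclei. Emilin2, an extracellular matrix glycoprotein, was found in 89, F13a1, the A subunit of coagulation factor XIII, in 82, and Ly6c2, which encodes the Ly6C surface antigen, in 59. Only 17 nuclei held all 4 markers, 24 held 3 and 113 held 2. In the GRCm38 build Ccr2 lies on chromosome 9 (124101950 to 124113557), F13a1 on chromosome 13 (36867178 to 37050244), Emilin2 on chromosome 17 (71252172 to 71311978) and Ly6c2 on chromosome 15 (75108158 to 75111970).

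The pairs of markers varied between libraries, which is a description only, since the rule used these genes. The pair Ccr2 and Emilin2, with neither F13a1 nor Ly6c2, was the most frequent with 47 nuclei, of which 27 were in MASH 1 and 17 in MASH 2. By contrast, 10 of the 11 nuclei with F13a1 and Ly6c2 alone were in chow 1. Chow 2, chow 3 and MASH 2 held 0 of them and MASH 1 held 1, and chow 2 had only 3 monocyte-like nuclei. Whether this pattern goes with chow 1 alone or with the diet was not tested. Ccr2 was also more widespread outside the monocyte-like nuclei in MASH: 5.91% and 6.45% of the remaining nuclei of MASH 1 and MASH 2 held a UMI of it, against 0.783%, 0.407% and 0.679% in chow 1, 2 and 3. The part of this wider Ccr2 signal in the Ccr2 and Emilin2 pairs was not tested.

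Nuclei just inside and just outside the threshold are described here with no test. The 863 nuclei with 1 marker held a median of 963 UMIs in chow and 1189.5 in MASH, and the 113 with 2 markers held 880 and 1181. Lyz2, the lysozyme of myeloid cells that the rule did not use, was found in 44.97% of chow and 33.3% of MASH nuclei with 1 marker. With 2 markers the shares were 74.2% and 73.2%, and with 3 or 4 markers 89.5% and 95.5%.

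In chow 1, most of the nuclei went against the label. Camp, Ltf, Ngp, S100a8 and S100a9 encode granule and cytosolic proteins of maturing neutrophils, and Mpo, Elane, Prtn3, Ctsg and Ms4a3 are made in early myeloid progenitors. Of the 26 monocyte-like nuclei of chow 1, 8 held at least 5 UMIs of the former (granule) genes in sum, and in those 8 they made up 15.2% of all UMIs. The latter (progenitor) genes had at least 1 UMI in 16 of the 26, with 215 UMIs in all. Together, 19 of 26 nuclei carried one or the other, against 0 of 3 in chow 2, 1 of 21 in chow 3, 0 of 72 in MASH 1 and 0 of 32 in MASH 2. These 10 genes were chosen after their values were seen.

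Prtn3 alone, the gene of proteinase 3, gave 75 UMIs in 14 nuclei of chow 1, and S100a9, a calcium-binding protein of neutrophils, gave 394 UMIs in 9. In the remaining nuclei of chow 1 the 5 granule genes summed to 400.4 CPM (counts per 1000000 UMIs summed over a set of nuclei) and the 5 progenitor genes to 29.6, and 1.44% of those nuclei held a UMI of a progenitor gene. No Kupffer-like nucleus of any library held one. The 19 nuclei also differed from the other 7 of chow 1 in what they lacked: Alb, the albumin gene, was found in 1 of 19 and in 7 of 7, and Emilin2 in 0 and 4. Ly6c2 was found in all 19 and in 1 of the 7. Cell cycle genes gave 43 UMIs in 16 of the 19, and 1 UMI in the other 7. Median depth was 701 UMIs for the 19 and 1771 for the 7.

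**Figure D1:**
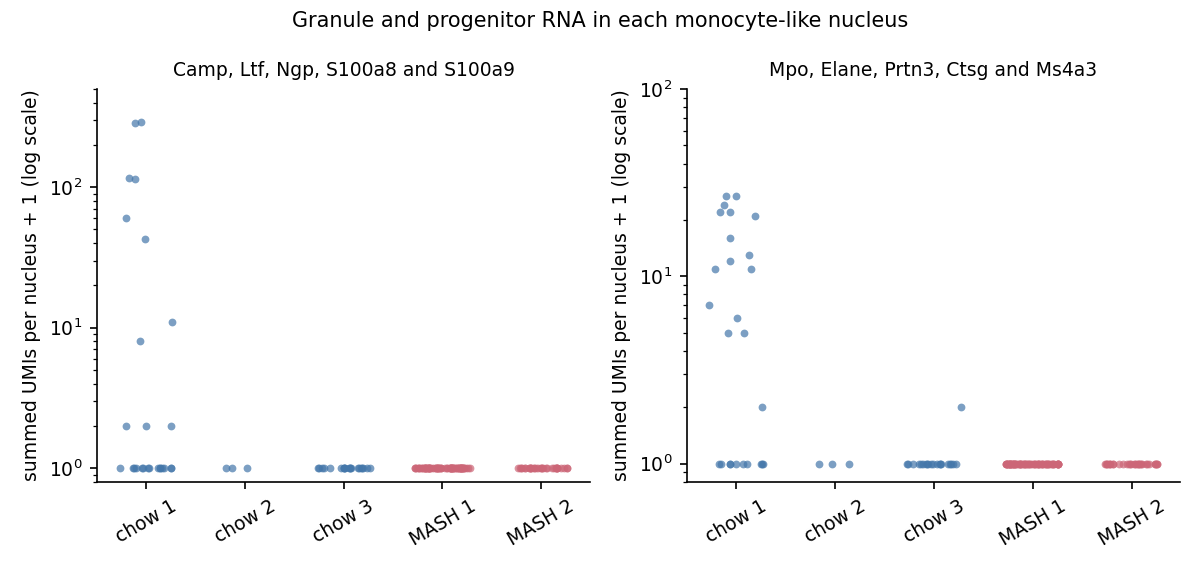
Each point is 1 monocyte-like nucleus; the vertical axes give the summed UMIs of 5 granule genes (left) and 5 progenitor genes (right) plus 1, on a log scale, by library. Nuclei with up to 291 granule UMIs were found in chow 1, and in the other libraries no nucleus held more than 1 progenitor UMI.

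Results below are for all 154 nuclei, and values that these nuclei move are also given without them. Both ways of leaving nuclei out were chosen after the data were seen. The first left out the 8 nuclei with granule RNA, so that 146 remained. After its results were known it was widened to nuclei with granule or progenitor RNA, which left 134, and the minimum number of nuclei a library needed for a test was lowered from 10 to 5, since chow 1 kept only 7. These 134 were 7, 3 and 20 nuclei in chow 1, 2 and 3, and 72 and 32 in MASH 1 and MASH 2.

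The first comparison asked whether monocyte-like nuclei took a larger share of the liver nuclei in MASH. They were 0.308% of the nuclei kept in chow 1 (26 of 8450, 95% exact binomial interval 0.201% to 0.451%), 0.0239% in chow 2 (3 of 12529, 0.00494% to 0.0700%) and 0.192% in chow 3 (21 of 10925, 0.119% to 0.294%). They were 0.716% in MASH 1 (72 of 10057, 0.561% to 0.901%) and 0.285% in MASH 2 (32 of 11237, 0.195% to 0.402%). The intervals cover counting error only. Chow 1 lay above MASH 2, so the diets overlapped. The mean was 0.175% ± 0.143 (SD, n = 3) in chow and 0.5003% ± 0.305 (SD, n = 2) in MASH, a difference of 0.326 percentage points (two-sided exact permutation p = 0.3, where 0.1 is the smallest that 3 against 2 libraries allow).

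Without the 8 nuclei with granule RNA, chow 1 held 0.213%, and the diets did not overlap (difference 0.357, exact permutation p = 0.1, n = 3 and 2). Without the nuclei with granule or progenitor RNA, chow 1 held 0.0828% and chow 3 0.183%, and the diets again did not overlap. The difference was then 0.404 percentage points (exact permutation p = 0.1, n = 3 and 2). Such nuclei were found only in chow, so leaving them out could only widen the difference. These 2 results therefore add no support for a difference between the diets. With all nuclei thinned to 500 UMIs, which removes differences in depth, the difference was 0.0927 (exact permutation p = 0.5, n = 3 and 2) and the diets overlapped. With mitochondrial UMIs under 10%, MASH 1 kept 34 of its 72 nuclei and the difference was 0.192 (exact permutation p = 0.3, n = 3 and 2). In the 41 nuclei with 3 or 4 markers, the shares were 0.0828%, 0% and 0.110% in chow, where 0 of 12529 allows up to 0.0239%, and 0.179% and 0.0356% in MASH, and these overlapped too. When nuclei with a UMI of Alb, Stab2, Cd5l, Flt3, Csf3r, Ms4a1, Skap1 or Spp1 were also left out, 20 nuclei remained, 17 of them in chow 1, and the difference changed sign to -0.0537. Fewer monocytes in the tissue and fewer nuclei recovered or recognised cannot be told apart in such shares.

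**Figure D2:**
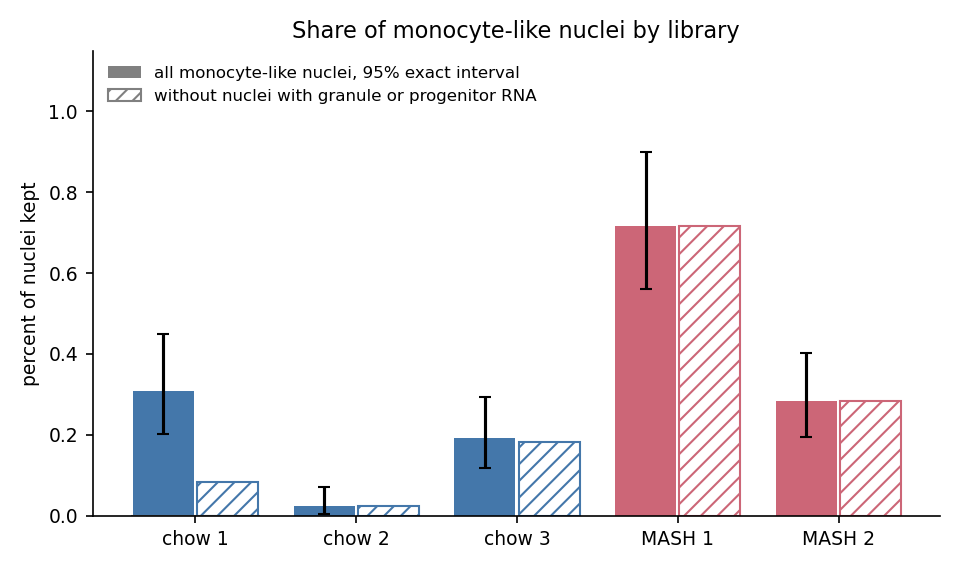
The share of nuclei kept, in percent, by library; solid bars are all monocyte-like nuclei with 95% exact binomial intervals, and hatched bars leave out those with granule or progenitor RNA. Chow 1 fell from 0.308% to 0.0828%, below both MASH libraries.

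Beyond the rule's own genes, the nuclei carried RNA of myeloid cells. Levels were compared with all remaining nuclei of the same library as log2((CPM + 5)/(CPM + 5)) and averaged over the 4 libraries with at least 10 monocyte-like nuclei. Since the same nuclei were chosen by their counts, these are descriptions with no test. The 20 genes highest by this measure, among those found in at least 5% of the nuclei, ran from 7.07 for F13a1 to 4.79 for Sorl1, a sorting receptor. Lyz2 had a log2 ratio of 6.55 and ranked above the markers Emilin2 (6.27) and Ly6c2 (6.19).

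Lyz2 was at 6764 CPM in the monocyte-like nuclei of chow 1, 545 in chow 2, 8314 in chow 3, 2801 in MASH 1 and 1655 in MASH 2. In Kupffer-like nuclei, defined in the same way by at least 2 of Clec4f, Vsig4, Timd4 and Cd5l, it was between 257 and 519 CPM. All 5 libraries thus had more Lyz2 in monocyte-like than in Kupffer-like nuclei. The remaining nuclei were at 7.01 to 75.1 CPM.

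Vcan, the proteoglycan versican of inflammatory monocytes, was at 235, 327 and 2749 CPM in chow 1, 2 and 3 and at 173 and 138 in MASH 1 and MASH 2. Kupffer-like nuclei held at most 12.8. Chow 3 stood apart from the other 4 libraries, with Vcan in 14 of its 21 nuclei. Emb, the adhesion protein embigin, was at 547, 327 and 893 CPM in chow and 205 and 115 in MASH, so the diets did not overlap.

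Ms4a6c, of the membrane-spanning MS4A family, was at 586 and 756 CPM in chow 1 and 3 and at 535 and 460 in MASH. Ms4a6b (log2 ratio 4.93) and Ms4a4c (4.95) are of the same family. Cybb, the catalytic subunit of the phagocyte oxidase, was at 626, 893, 850 and 735 CPM in the same 4 libraries. Itgam, the integrin alpha chain of Mac-1, was at 391, 378, 220 and 230. Tyrobp, an adaptor of myeloid receptors, was at 860 and 1099 in chow 1 and 3 and at 291 and 138 in MASH.

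Chil3, Plac8 and Coro1a were highest in chow 1, the library with the granule and progenitor nuclei. Chil3, a chitinase-like secreted protein, was at 1017 CPM in chow 1 but 275 in chow 3, 149 in MASH 1 and 46.0 in MASH 2. Plac8, a cysteine-rich protein of myeloid cells, was at 1642 CPM in chow 1 and at 275, 409 and 68.9 in the same other libraries. Coro1a, an actin regulator of leukocytes, was at 821 in chow 1, 137 in chow 3, 488 in MASH 1 and 368 in MASH 2. Fxyd5, an ion transport regulator, had a log2 ratio of 4.92, and Napsa, an aspartic protease, 5.22. Without the granule or progenitor nuclei, chow 1 was at 172 CPM for Chil3, 86.0 for Plac8 and 688 for Coro1a, so that only Coro1a was still highest there. Vcan was then at 516 CPM in chow 1, Tyrobp at 344 and Lyz2 at 5851. In chow 2 the 3 nuclei gave 9167 UMIs in all, and 0 UMIs of Chil3, Plac8 and Napsa were found there.

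**Figure D3:**
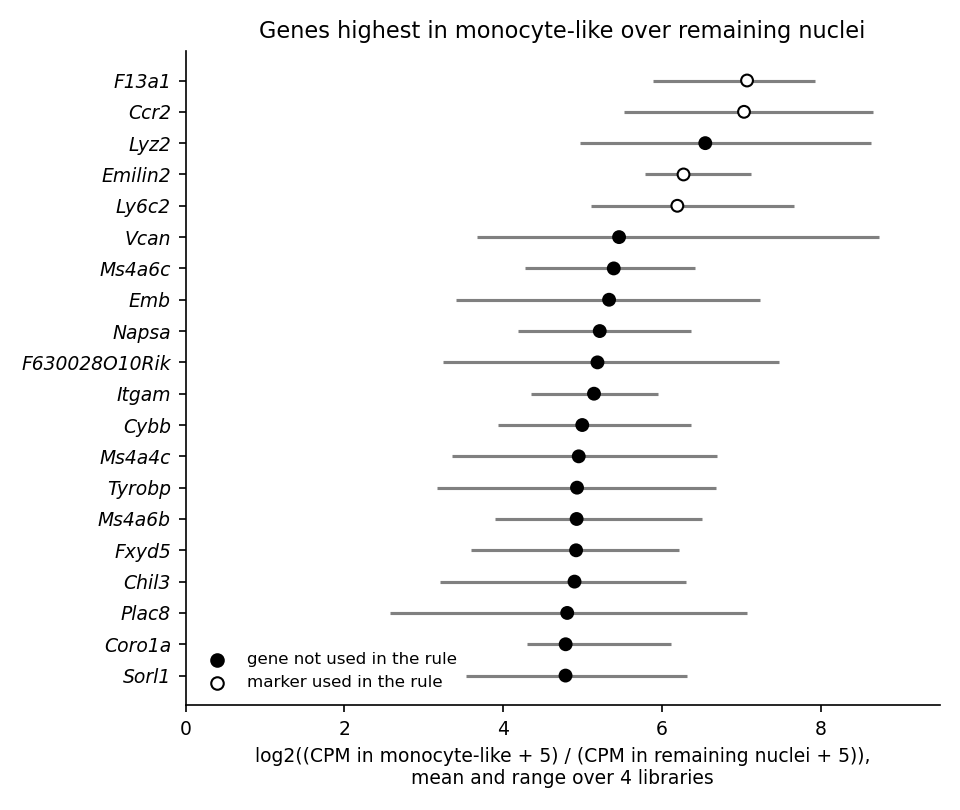
The 20 genes with the highest level in monocyte-like over remaining nuclei; the horizontal axis is the log2 ratio of CPM plus 5, points are means and lines the range over the 4 libraries with at least 10 monocyte-like nuclei, and open points are the rule's markers. Lyz2 (6.55) lies among the markers, and Vcan has a range from 3.67 to 8.73.

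Lists of marker genes placed the nuclei among the liver's myeloid cells. The classical monocyte list (25 genes, rule genes not included) summed to 16656, 4363 and 25321 CPM in chow 1, 2 and 3 and to 9471 and 6641 in MASH 1 and 2. It gave 3174 to 5760 CPM in Kupffer-like nuclei of chow and 3521 and 2254 in those of MASH. Without the granule or progenitor nuclei, the list was at 14800 CPM in chow 1 and 25346 in chow 3. Fn1, Hp and Mgst1 of this list are also made by hepatocytes, and the remaining nuclei held 2487 to 5635 CPM of it. The phagocyte receptor and oxidase list, which is nearly absent from hepatocytes, was at 7546, 545 and 9208 CPM in chow and 4751 and 5079 in MASH, against 62.0 to 510 in the remaining nuclei.

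Genes of other myeloid cells varied by library. The neutrophil list gave 39959 CPM in chow 1, and 688 there without the granule or progenitor nuclei, against at most 378 in the other libraries. The Kupffer cell list gave 378 to 758 CPM in the monocyte-like nuclei and 4093 to 6553 in Kupffer-like nuclei, and Timd4 and Marco of that list were at 0. Clec4f was at 0 by the rule. The lipid-associated macrophage list gave 3194 and 6136 CPM in MASH 1 and 2, beside 2570 and 2817 in the remaining nuclei, against 11372 in the pooled lipid-associated macrophage-like nuclei of MASH (2 or more of Gpnmb, Trem2, Atp6v0d2 and Mmp12). Only 1 and 2 nuclei of MASH 1 and 2 held 2 or more of these 4 markers. At least 1 of them was found in 9 of 32 nuclei of MASH 2, or 28.1%, and in 4 of 72 of MASH 1, or 5.56%, whereas 16.6% of the remaining nuclei of MASH 2 and 17.2% of those of MASH 1 held one. At least 2 of the dendritic cell markers Flt3, Zbtb46, Clec9a, Xcr1 and Cd209a were found in 1 of the 154 nuclei, in chow 1. At least 1 was found in 3 of the 7 nuclei of chow 1 without granule or progenitor RNA (42.9%), and in 9.37% of its remaining nuclei. The conventional dendritic cell list gave 2667 CPM (31 UMIs) in those 7, against 465 to 597 in chow 3, MASH 1 and MASH 2 without such nuclei. In pooled dendritic-like nuclei of chow (2 or more of these markers) it gave 3837. T cell and natural killer cell genes gave 26 UMIs in all.

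RNA typical of hepatocytes was present throughout, although Hnf4a was 0 by the rule. Alb was found in 130 of the 154 nuclei. The hepatocyte list (37 genes) gave 12434, 74288 and 89672 CPM in the monocyte-like nuclei of chow 1, 2 and 3, beside 38287, 58676 and 84146 in the remaining nuclei. In MASH 1 and 2 it gave 26872 and 14409 CPM, beside 26412 and 19323. In chow 1 the list was at 1720 CPM in the 19 nuclei with granule or progenitor RNA and at 25297 in the other 7.

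Per nucleus, Cx3cr1 was found most often in MASH. This fractalkine receptor of non-classical monocytes was present in 1 of 26, 0 of 3 and 4 of 21 nuclei of chow 1, 2 and 3, and in 25 of 72 (34.7%) and 9 of 32 (28.1%) of MASH 1 and 2. In Kupffer-like nuclei it was found in 1.47%, 0% and 0% in chow and in 4.75% and 4.42% in MASH. Their median depths in MASH 1 and 2 were 1376 and 1451 UMIs, against 1296.5 and 1172.5 for the monocyte-like nuclei. Of the remaining nuclei, 0.368%, 0.447% and 1.17% in chow and 3.97% and 4.56% in MASH held a UMI of it. Cx3cr1 was thus also more frequent in MASH outside the monocyte-like nuclei. Without the granule or progenitor nuclei it was in 1 of 7 nuclei of chow 1 (14.3%) and 3 of 20 of chow 3, below both MASH libraries. After thinning all 154 nuclei to 500 UMIs the shares were 3.85%, 0% and 4.76% in chow and 19.4% and 21.9% in MASH, so both MASH libraries stayed above the chow libraries. Its level was 117, 0 and 172 CPM in chow and 283 and 299 in MASH, and 258 in chow 1 without these nuclei. The difference in shares was not tested.

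MHC class II genes and Cd74, the invariant chain that goes with them, were found in 19.2%, 33.3% and 33.3% of the nuclei in chow and 66.7% and 65.6% in MASH. In chow 1, however, all 5 nuclei with such a UMI were among the 7 without granule or progenitor RNA (71.4%), which is above both MASH libraries, so the diets overlapped once those nuclei were left out. They were also found in 44.6% and 41.4% of the remaining nuclei of MASH, against 7.08% to 10.9% of those of chow. Complement C1q genes, made by macrophages, were found in 29.2% and 37.5% of the nuclei of MASH. Since 27.1% and 22.2% of the remaining nuclei held a UMI of them too, the share in MASH 1 is close to background.

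**Figure D4:**
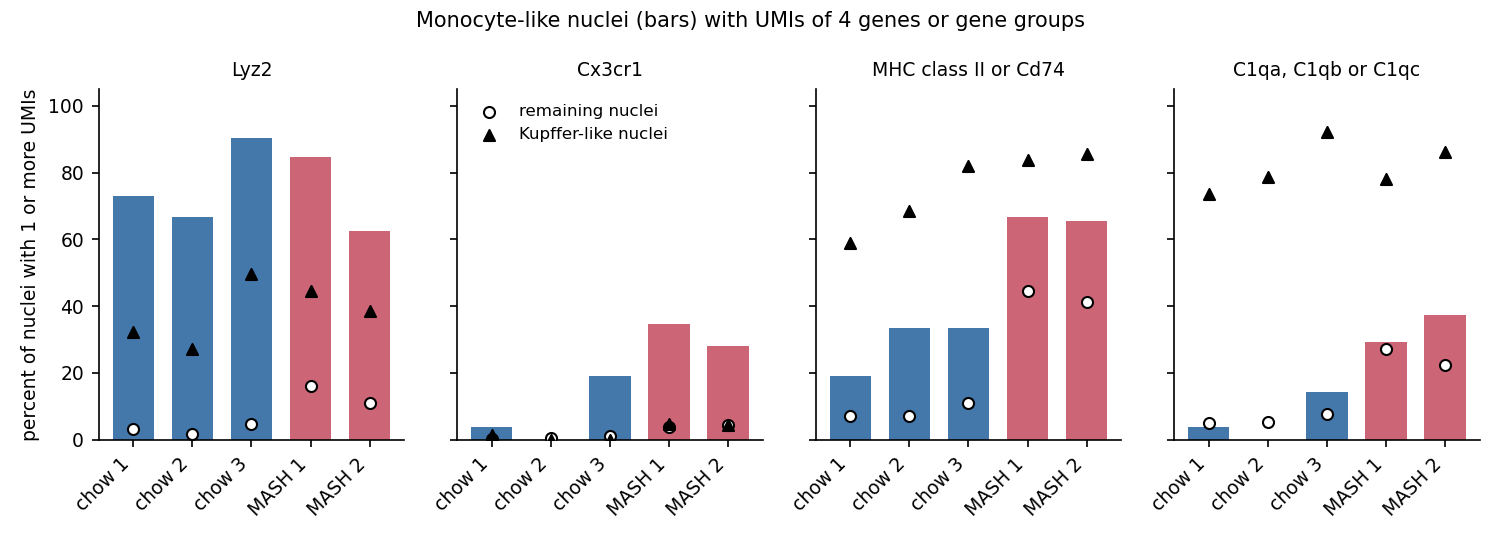
Percent of monocyte-like nuclei (bars, blue chow and red MASH) with at least 1 UMI of Lyz2, Cx3cr1, MHC class II genes or Cd74, and C1q genes; circles are the remaining nuclei and triangles Kupffer-like nuclei of the same library, and chow 2 rests on 3 nuclei. Cx3cr1 was at 34.7% and 28.1% in MASH, while C1q in MASH 1 lay close to the remaining nuclei.

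The second comparison asked which genes differed between the diets within the monocyte-like nuclei. UMIs were summed per library, and chow 2 was left out with its 3 nuclei, so that chow 1 and 3 (25576 and 29106 UMIs) stood against MASH 1 and 2 (127119 and 43515). Of 482 genes with enough counts, 1 (0.207%) was called at an adjusted p under 0.05 with edgeR's quasi-likelihood test, and it fell in MASH. Unadjusted p-values were under 0.05 for 98 genes. On simulated counts for these libraries, run on 592 genes, the test called 55 of 80 genes changed 8-fold and 12 of 75 changed 4-fold. It also called 4 of 437 unchanged genes. The simulation gave all genes the same spread and unchanged genes the same mean share in every library. It thus held no difference in make-up between chow 1 and chow 3.

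The gene that fell was Mup17, which encodes a major urinary protein secreted by hepatocytes (chromosome 4, 61591929 to 61595871, minus strand). Its level was 619 and 1399 normalised CPM in chow 1 and 3 (14 and 47 UMIs) and 47.2 and 0 in MASH 1 and 2 (6 and 0 UMIs). The log2 fold change was -4.92 (SE 0.99, adjusted p = 0.0110, edgeR), lower in both MASH libraries. The call was lost, with log2 fold changes of -4.87, -4.43, -4.59 and -5.13, with library sizes without hepatocyte and mitochondrial genes (adjusted p = 0.0924, edgeR), with mitochondrial UMIs under 10% (0.166), without Scrublet doublets (0.0591) and with chow 2 also used (0.152). It was also lost without MASH 1 (-8.02, adjusted p = 0.612, edgeR) and without MASH 2 (-3.98, 0.998). Over the alternatives the adjusted p ran from 1.68e-10, without chow 1, to 0.998. Mup17 differed in the same way outside the monocyte-like nuclei: it was at 446, 652 and 584 CPM in the remaining nuclei of chow 1, 2 and 3 and at 28.9 and 5.69 in those of MASH. In Kupffer-like nuclei it was at 667, 1390 and 1467 CPM in chow and 47.6 and 3.20 in MASH. Mup genes are near-identical copies, so reads can be shared among them.

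No gene of the 24 marker and pathway lists was called. Of the 37 hepatocyte genes, 23 were tested and 18 of these had a log2 fold change below 0, with a median of -1.01 against -0.09 over all 482 genes. The most abundant were Alb (log2 fold change -1.36, SE 0.88) and Apoa2, a lipoprotein (-1.01, SE 0.89), and the diets overlapped for both. The summed list was lowest in chow 1 among the monocyte-like nuclei, whereas in the remaining nuclei it was lower in both MASH libraries than in any chow library, as given above.

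Of the classical monocyte list, 9 of 25 genes were tested. All 9 had values below 0, as did 254 of all 482 genes tested, with a median log2 fold change of -0.94. Without granule or progenitor nuclei, 9 of 11 tested were below 0 and 2 above, with a median of -0.78. In the remaining nuclei the list was also lower in MASH, at 2904 and 2487 CPM against 3450, 2989 and 5635 in chow. Chow 2, left out of the test, held 4363 CPM of the list in its 3 nuclei, below MASH 1 and 2 at 9471 and 6641. Lyz2 was at 7645 and 7204 normalised CPM in chow 1 and 3 and at 2799 and 1690 in MASH 1 and 2. The diets did not overlap in these libraries, but in chow 2 Lyz2 was at 545 CPM, below both MASH libraries. Its log2 fold change was -1.72 (SE 0.83, adjusted p = 0.238, edgeR), which did not pass the threshold. Fn1, fibronectin, was at -0.94 (SE 0.90). Plac8 was at -2.01 (SE 0.98), but at 0.60 (SE 0.66) without the granule or progenitor nuclei, and S100a6, a calcium-binding protein, was at -1.35 and then at -0.05.

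The 3 tested genes of the non-classical monocyte list had values above 0, as did 228 of all 482 genes tested. Itgal, the alpha chain of the integrin LFA-1, was at 44.2 and 89.3 normalised CPM in chow 1 and 3 and at 385 and 446 in MASH 1 and 2. Its log2 fold change was 2.51 (SE 0.84, adjusted p = 0.145, edgeR), higher in both MASH libraries and below the threshold of the test. Pou2f2, a POU-domain transcription factor, was at 0.83 (SE 0.71) and Cx3cr1 at 1.03 (SE 0.76). The diets did not overlap in these 3 genes, but with 2 libraries per diet this says little. The share without overlap was not counted over all 482 genes, so it does not set these 3 apart. Ms4a6c (adjusted p = 0.875, edgeR) and Cd74 (adjusted p = 0.773, edgeR) did not overlap either. In chow 2, left out of this test, they were at 109 and 327 CPM, below both MASH libraries.

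Among transcription factors, 5 of 18 were tested. Zeb2, which is needed for macrophage identity, was at 1.04 (SE 0.90) and Cebpb, a C/EBP factor of monocytes, at -1.12 (SE 0.84). Of the macrophage maturation list, 4 genes were tested, of which Apoe, the apolipoprotein, was at 0.31 (SE 0.81) and Tgfbi, a matrix protein, at -0.60 (SE 0.85). Of the lipid-associated macrophage list, Ctsb and Ctsd, both lysosomal cathepsins, were at 1.16 (SE 0.90) and 0.79 (SE 0.71). None of these passed the test, and leaving out chow 1 turned Apoe to -0.24.

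The phagocyte receptor and oxidase list had 7 tested genes, 5 of them below 0, with a median of -1.005. Tyrobp was at 972 and 953 normalised CPM in chow 1 and 3 and at 291 and 141 in MASH 1 and 2 (log2 fold change -2.10, SE 0.85, adjusted p = 0.193, edgeR). Lilrb4a, an inhibitory receptor, was at -1.47 (SE 0.92). Cybb, at 0.11 (SE 0.87), had overlapping diets. The MHC class II and antigen presentation list had 8 tested genes, 4 above and 4 below 0, with a median of -0.03. Cd74 was at -0.62 (SE 0.89) and H2-D1, a class I heavy chain, at -0.79 (SE 0.88). Of the chemokine genes, Ccl9, a CC chemokine of myeloid cells, was at -1.75 (SE 0.68, adjusted p = 0.182, edgeR). Of the lists of other cells, Tcf4, a transcription factor of plasmacytoid dendritic cells, was at 2.07 (SE 0.83) and Sorbs2, of the cholangiocyte list, at 1.44 (SE 0.76). F630028O10Rik, of the 20 genes highest over remaining nuclei, was at -2.35 (SE 0.93). No gene of the Kupffer cell, neutrophil, T and NK cell, or cell cycle lists had enough counts to be tested.

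Ribosomal protein genes, singled out after their values were seen, were below 0 in 64 of 64 tested, against 254 of all 482. Their median log2 fold change was -1.96. They summed to 107288, 9600 and 32124 CPM in chow 1, 2 and 3 and to 22593 and 14685 in MASH 1 and 2. Within chow 1 they were at 164541 CPM in the 19 nuclei with granule or progenitor RNA and at 38548 in the other 7. Without granule or progenitor nuclei, 50 of 59 were below 0, against 255 of all 517 tested, and the median was -0.60. With all nuclei, an unadjusted edgeR p was under 0.05 for 39 of the 64 genes, against 98 of all 482. Without these nuclei it was for 5 of the 59, against 79 of all 517, so the share was then no higher than over all genes.

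The count of called genes depended on which nuclei were left out. Without the 8 granule nuclei, 497 genes were tested and 1 was called, again lower in MASH (Mup17, log2 fold change -4.91, adjusted p = 0.00234, edgeR). Without granule or progenitor nuclei, 517 genes were tested and 23 (4.45%) were called, 7 higher and 16 lower, although chow 1 then rested on 7 nuclei and 11622 UMIs. Of these 7 nuclei, 3 held a UMI of a dendritic cell marker. The second count comes from the definition widened after the first was known, and the genes below were named after their values were seen. Of the 23 genes, 9 are on the hepatocyte list, which had 27 of the 517 tested genes. In the remaining nuclei, 13 of the 23 differed in the same direction without overlap. This was not counted over all 517 genes, so it does not set the called genes apart.

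Among the genes lower in MASH under the wider definition were Vcan and Emb. Vcan was at 516 and 2828 CPM in chow 1 and 3, on 6 and 79 UMIs. In MASH 1 and 2 it was at 173 and 138 CPM, on 22 and 6 UMIs. Its log2 fold change was -3.18 (SE 0.74, adjusted p = 0.00232, edgeR). In the remaining nuclei it was at 0.57 to 1.49 CPM in chow and at 5.55 and 6.26 in MASH. Emb was at -1.95 on the same scale (SE 0.60, adjusted p = 0.0309, edgeR), and Srgn, the granule proteoglycan serglycin, at -1.94 (SE 0.62, adjusted p = 0.0474, edgeR). Mup11, Serpina1e and Fgg, all secreted by hepatocytes, fell by 6.21, 5.73 and 2.51 on the log2 scale. Apoa4, a lipoprotein, rose by 3.05, and it was also higher in the remaining nuclei of MASH, at 384 and 272 CPM against 8.96 and 87.5 in chow 1 and 3. How far RNA from outside the nucleus enters these values was not tested. Some of these calls rest on few UMIs. In chow 1 and 3, Srgn had 6 and 14, Mup11 4 and 79, and Apoa4 0 and 2. In MASH 1 and 2, Srgn had 19 and 1, Mup11 3 and 0, and Apoa4 50 and 13.

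**Figure D5:**
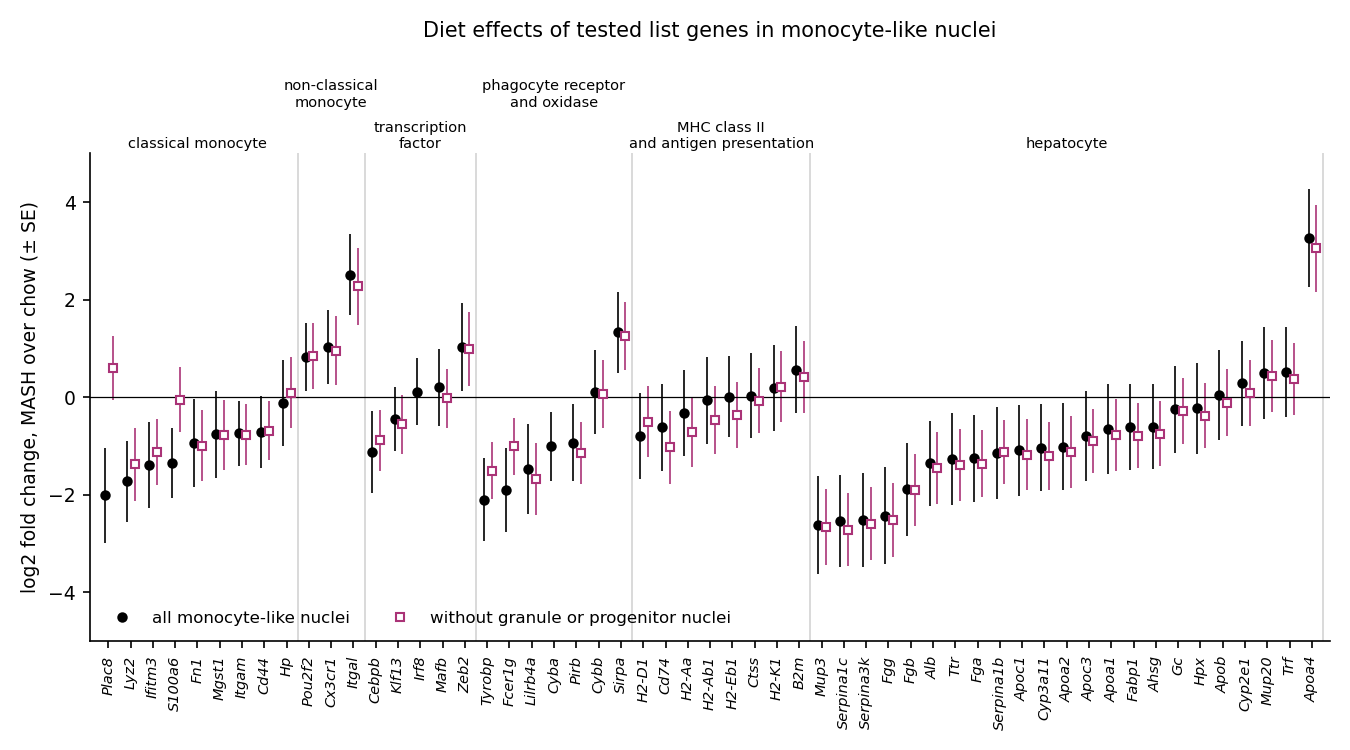
Log2 fold change, MASH over chow, with its standard error for the tested genes of 6 lists, for all monocyte-like nuclei (filled circles) and without granule or progenitor nuclei (open squares). Itgal lies above 0 in both, at 2.51 and 2.27, and Plac8 moves from -2.01 to 0.60.

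The last comparison asked whether the diet effect in monocyte-like nuclei differed from that in Kupffer-like nuclei of the same 4 libraries. Of 4113 genes, 0 (0.0%) were called with edgeR's interaction test, and 272 had an unadjusted p under 0.05. Itgal had the higher change in monocyte-like nuclei, by 2.58 on the log2 scale (SE 0.98, adjusted p = 0.607, edgeR), with a diet effect of -0.01 in Kupffer-like nuclei. Lyz2 differed by -1.66 (SE 0.75, adjusted p = 0.734, edgeR). Mup17 differed by 0.03 (SE 1.33) in this fit. Fitted separately, with their own filters and scaling, its log2 fold changes were -4.92 in monocyte-like and -5.18 in Kupffer-like nuclei. On simulated counts this test called 4 of 200 changed genes, so a p that misses the threshold does not show that the effects were alike.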

How the data were processed

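Nuclei from 5 frozen livers or liver pools were sorted, and RNA was captured with a droplet 3-prime kit. The authors aligned reads to GRCm38 with Cell Ranger 8.0.1 and deposited raw counts of UMIs per gene and barcode, intronic reads left out per their methods. From these counts, nuclei with at least 300 genes and under 20% mitochondrial UMIs were kept, and the marker rule was applied without clustering. Doublets were not removed, and an alternative left out the highest Scrublet scores (scanpy 1.11.5) at 0.8% per 1000 nuclei. Gene positions are from GENCODE M21, which matched 32158 of 32285 identifiers.

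Counts were summed per library with at least 10 monocyte-like nuclei and tested with edgeR 4.0.16 (R 4.3.3), using filterByExpr, TMM and the quasi-likelihood test with Benjamini-Hochberg adjustment at 0.05, with the 12 rule genes left out. The test was run on simulated data with 200 changed genes. DESeq2 1.42.0 was an alternative. Shares were compared by a two-sided exact permutation test over the 10 divisions of the libraries. The interaction with Kupffer-like nuclei kept the library as a block and left out their markers too.

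The genes named were the called gene without overlap, the 2 tested genes with the highest mean CPM of each list, the 20 highest over remaining nuclei and the rule genes. Other genes named were chosen after their values were seen. One gene that the rule names is not reported here. The members and the 24 lists were chosen with earlier results of these data known. The alternatives that leave out granule nuclei, leave out granule or progenitor nuclei, or add chow 2 were added after the data were seen. The second was put in place after the first gave 1 called gene, with added genes and a lower minimum of 5 nuclei.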

Additional observations from a re-analysis of the deposited data

How the results depend on the processing

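The difference in share kept its sign under 14 of 15 alternatives. Among these 14 were both ways of leaving out granule or progenitor nuclei, which could only widen the difference and add no support. The difference was 0.0431 percentage points with at least 3 of the 4 markers and 0.192 with mitochondrial UMIs under 10%. After thinning it was 0.0927, and with 8 further genes at 0 it was -0.0537. When each library was left out it ran from 0.110, without MASH 1, to 0.541, without MASH 2. With a replicate block over the numbers 1 and 2 it was 0.335, and the numbers are not known to pair the libraries. The count of genes called between diets, 1 in the report, was 24 with no filter on low counts, 2 with a minimum count of 20, 4 with thinned sums and 0 with library sizes without hepatocyte and mitochondrial genes, with mitochondrial UMIs under 10%, without Scrublet doublets and with chow 2 also used. Of the alternatives added after the data were seen, leaving out granule nuclei gave 1, and the wider set of granule or progenitor nuclei, defined after that count was known, gave 23. The 23 calls thus depend on that choice. Leaving out each library gave 0 to 190: 41 without chow 1, 190 without chow 3, and 0 without MASH 1 or MASH 2, where the lone library of a diet is assumed to vary like the others. No paired analysis was possible because the 4 libraries of that test share only the number 1. The interaction count of 0 became 2 with no filter, 1 without granule nuclei, 3 without granule or progenitor nuclei, and 0 to 321 when each library was left out, with 9 without chow 1 and 321 without chow 3. The causes were not tested. Diet tests with at least 3 markers or with 8 further genes were not run, since too few nuclei remained.

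Some named genes, none of them called in the report, changed sign. With no filter on low counts, Coro1a was at 0.27. With thinned sums, Coro1a was at 0.44 and Ifi204 at 0.44. With at least 500 genes, Coro1a was at 0.66. With mitochondrial UMIs under 10%, Ifi204 was at 0.68. Without Scrublet doublets, Coro1a was at 0.17 and Ifi204 at 0.023. Without granule nuclei Coro1a was at 0.49, and without granule or progenitor nuclei Coro1a was at 0.68 and Plac8 at 0.60. With chow 2, Coro1a was at 0.074, Ms4a6c at 0.018 and Sorl1 at 0.086. Over the libraries left out, the ranges were -1.49 to 0.25 for Fn1, -0.24 to 1.34 for Apoe, -2.04 to 0.36 for Alb, -1.72 to 0.71 for Apoa2, -0.80 to 1.86 for Coro1a, -0.92 to 0.012 for Cd44, -0.30 to 1.40 for Stat2, -0.78 to 0.63 for Ifi204, -0.39 to 0.18 for Ms4a6c, -0.87 to 0.31 for Ms4a6b, -3.42 to 0.22 for Plac8 and -0.70 to 0.34 for Sorl1.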
